A study of Homo sapiens with 12 samples.

Results

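KMS11 is an established cell line from a human multiple myeloma, and its oxygen-sensing genes are described here across the 6 groups of an RNA sequencing study of the kinase STK17B. The set is defined by symbol. It holds 9 of the 29607 genes in the table: HIF1A, EPAS1 and ARNT, which encode subunits of the hypoxia-inducible factors (HIF), the hydroxylase genes EGLN1, EGLN2, EGLN3 and HIF1AN, the ubiquitin ligase subunit gene VHL, and CITED2. The 12 libraries form 6 groups of 2. All groups are KMS11 cells, and 5 of them carry the label of no treatment. The shControl cells carried a control hairpin and sh1 and sh2 cells 1 of 2 hairpins against STK17B. Vector cells carried an empty vector and overexpression cells an STK17B cDNA. The inhibitor group received an STK17B inhibitor on a background labelled WT, and the labels give no name, dose or time for it. No group is labelled as vehicle, so the inhibitor was compared with shControl. An effect of the solvent, or of the hairpin construct in shControl, cannot be told apart from one of the inhibitor. The same holds for the inhibitor against sh1 and sh2, which also carried hairpins.

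A HIF is a pair of an alpha subunit (HIF1A or EPAS1, the second also called HIF2A) and the shared beta subunit ARNT. In oxygen, the prolyl hydroxylases EGLN1, EGLN2 and EGLN3 (also called PHD2, PHD1 and PHD3) mark the alpha subunit, VHL binds the marked protein, and the ligase it belongs to sends it for degradation. The asparaginyl hydroxylase HIF1AN (also called FIH) blocks binding of the coactivators EP300 and CREBBP, and CITED2 competes with the alpha subunit for the same coactivators. EGLN1, EGLN3 and CITED2 are themselves known HIF target genes in many cell types, and control of HIF1A is mostly at the protein, which was not measured here.

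HIF binds DNA at a short core, ACGTG or GCGTG. Both cores were searched on both strands in the 250 bases before the RefSeq start (GRCh38.p14) of the 8 members matched by symbol. On the opposite strand the cores read CACGT and CACGC, and CACGTG, which is also the E-box of other factors, holds ACGTG on both strands. The stretches shown here carry each member's match, for comparison with 2 genes of the HIF target list, CA9 and PFKFB4. They are written 5′ to 3′ on the gene's strand, with the match in capitals.
EGLN1: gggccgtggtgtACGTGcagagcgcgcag
CITED2: cagcctctgcagCACGTGccgcgggcggcg
EGLN2: gcggggcgcggtCACGTGcccaccgggcga
HIF1A: tggctgagagcgGCGTGggctggggtggg
EPAS1: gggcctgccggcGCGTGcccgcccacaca
CA9: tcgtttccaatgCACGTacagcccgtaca
PFKFB4: tgagttgggcatGCGTGgtcggaggccgg
The EGLN1 match begins 13 bases before its start (chr1:231422284-231422312, minus strand), in a window that GENCODE annotates as EGLN1 exon. That of CITED2 begins 153 bases before the start (chr6:139374784-139374813, minus strand) and that of EGLN2 49 bases before it (chr19:40799130-40799159, plus strand). For HIF1A the distance is 204 bases (chr14:61695297-61695325, plus strand) and for EPAS1 117 bases (chr2:46297278-46297306, plus strand). The CA9 match lies 18 bases (chr9:35673898-35673926, plus strand) and the PFKFB4 match 166 bases before the start (chr3:48556953-48556981, minus strand). Thus 3 of 8 members held ACGTG and 2 of 8 GCGTG, against 18.7% and 31.9% of all 27305 promoters. Either core was held by 5 of 8 members, or 62.5%, against 43.1% of all promoters. Of the 32 HIF target promoters matched, 28 held either core, or 87.5%. That list is of known HIF targets, so its share is a description and not a test. Neither core was in the windows of ARNT, HIF1AN and EGLN3. Of the 250 bases, 169 in ARNT, 84 in HIF1AN and 7 in EGLN3 lay in annotated exons of the same gene. The GENCODE spans of HIF1AN and EGLN3 begin further upstream, where no search was made. The same holds for EGLN1 and EPAS1, whose matches thus lie inside the annotated span of the gene. A match is a description of these letters and not a measured binding site.

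The whole CITED2 window, which overlaps no annotated exon, is given for context (chr6:139374649-139374898, minus strand, with the core in capitals).
CITED2 window: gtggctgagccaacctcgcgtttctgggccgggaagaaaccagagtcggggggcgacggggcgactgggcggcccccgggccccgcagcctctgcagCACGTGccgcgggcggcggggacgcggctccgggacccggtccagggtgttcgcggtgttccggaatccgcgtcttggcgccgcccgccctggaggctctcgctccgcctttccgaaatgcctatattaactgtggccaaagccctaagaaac

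Values were TPM, a transcript level corrected for length that sums to the same total in every library, so read depth is unknown. Tests used limma on log2(TPM + 1) over the 12731 genes that reached 1 TPM in 2 or more libraries, and a gene was called at an adjusted p below 0.05. STK17B stood at 27.1 and 27.4 TPM in shControl, 10.9 to 14.7 TPM in the 4 hairpin libraries, 24.9 and 22.4 TPM with the inhibitor, 28.2 and 31.5 TPM in Vector and 94.1 and 84.5 TPM with overexpression. The labels do not say whether the replicates were grown apart, so p-values measure a spread that may be technical. The control columns carry no group name and were assigned by library number, which is an inference, and results that turn on it are given with the columns exchanged. Summed plasma cell markers (11 of 11 above the filter, SDC1 and TNFRSF17 among them) ranged from 8205 to 8233 TPM in shControl, 6162 to 6973 TPM with the hairpins, 5992 to 6216 TPM with the inhibitor, 8257 to 8771 TPM in Vector and 8746 to 9066 TPM with overexpression. Against their controls, 10 of these 11 fell and none rose with the hairpins, 9 fell and 2 rose with the inhibitor, and 6 fell and 3 rose with overexpression. Over all tested genes 20.2% fell and 26.2% rose with the hairpins, 11.8% fell and 28% rose with the inhibitor, and 10.3% fell and 26.6% rose with overexpression. Their part in the results on oxygen-sensing genes was not tested. In bulk RNA, fewer cells of a kind and less RNA per cell cannot be told apart. Of 17 markers of other cell types 10 were under 1 TPM in every library, CD3D and CDH5 were at 0 throughout, and the sums ranged from 13.7 to 22.5 TPM.

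Of the 9 genes, 7 passed the filter in the tests, and EPAS1 and EGLN3 did not. In shControl the order of mean levels was EGLN2 (87.7 TPM), CITED2 (55.8), EGLN1 (38.4), ARNT (28.9), HIF1A (25.3), VHL (14.2), HIF1AN (10.7), EGLN3 (0.320) and EPAS1 (0.102), and the libraries of neighbours in that order did not overlap. ARNT and HIF1A overlapped in sh1, sh2 and Vector, EGLN1 and HIF1A overlapped in the inhibitor group, and EGLN3 and EPAS1 in sh2 and the inhibitor group. Overexpression was the only group in which CITED2 (78.7 TPM) stood above EGLN2 (73.3 TPM), without overlap. EGLN1 had the widest range of group means, 1.31 on the log2 scale, followed by CITED2 (0.75) and VHL (0.54). HIF1A (0.36), ARNT (0.38), HIF1AN (0.41) and EGLN2 (0.44) ranged less.

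**Figure D1:**
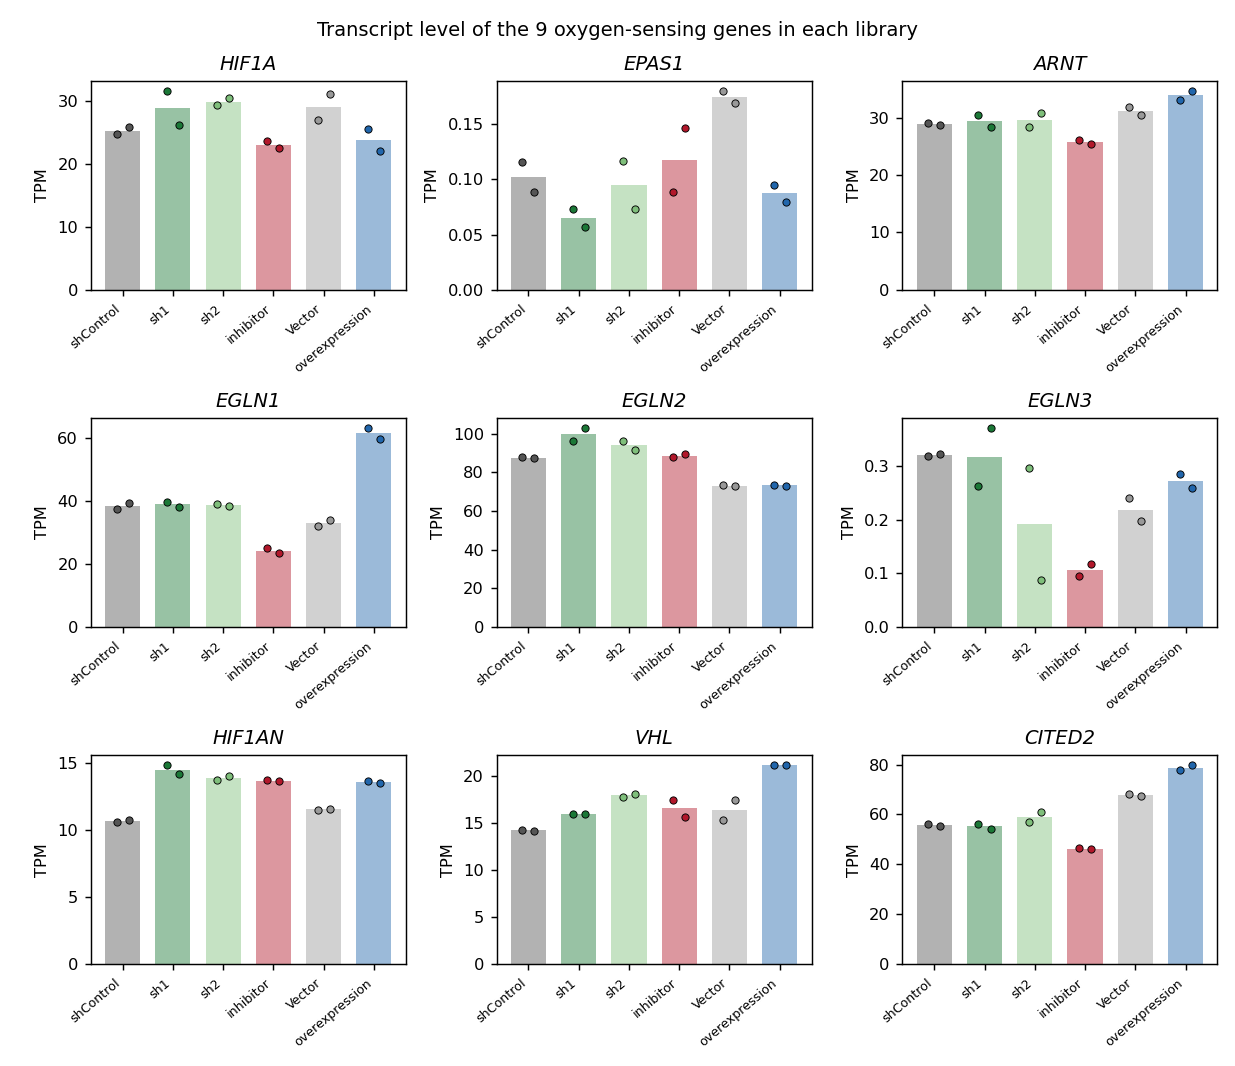
Level of each of the 9 genes in TPM (vertical axis, from 0, its own scale per gene) in the 6 groups. Points are single libraries and bars are means of 2. EGLN1 was lowest with the inhibitor and highest with overexpression, and EPAS1 and EGLN3 did not pass 0.370 TPM in any library.

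The number of members called differed between comparisons. With the hairpins 3 of 7 rose (HIF1AN, VHL, EGLN2) and none fell, where 26.2% of all tested genes rose and 20.2% fell, 46.3% in all. The median change of the 7 was 0.14, and that of all tested genes 0.03. With sh1 2 of 7 rose and none fell (23.7% and 21.3% of all genes, 45% in all), and with sh2 2 rose and none fell (22% and 13.4%, 35.5% in all). None of the 7 differed between sh2 and sh1 by limma at the adjusted threshold, where 1.55% of all genes did (1.16% higher and 0.385% lower), and CITED2 and VHL had unadjusted p-values of 0.038 and 0.042. With the inhibitor 2 of 7 rose (HIF1AN, VHL) and 3 fell (EGLN1, CITED2, ARNT), where 28% and 11.8% of all genes did, 39.9% in all. The median was -0.13 for the 7 and 0.08 for all genes. The ARNT fall was not called when any 1 of the 4 libraries was left out (-0.18 to -0.14). With overexpression 4 of 7 rose (EGLN1, VHL, HIF1AN, CITED2) and none fell, where 26.6% and 10.3% of all genes did, 36.8% in all. The median was 0.21 for the 7 and 0.08 for all genes. Between the control groups 1 of 7 was higher (CITED2) and 2 lower (EGLN1, EGLN2) in Vector, where 21.4% and 7.86% of all genes were, 29.3% in all. The inhibitor group was lower than the hairpins in 5 of 7 (EGLN1, HIF1A, CITED2, ARNT, EGLN2) and higher in none, where 21.6% and 30.9% of all genes were, 52.6% in all. Without inhibitor replicate 2 the HIF1A and ARNT calls were lost, leaving 3 of 7, and without inhibitor replicate 1 that of EGLN2. The knockdown effect minus the overexpression effect was positive in 1 of 7 (HIF1A) and negative in 2 (EGLN1, CITED2), where 11.4% and 18.5% of all genes were called, 29.9% in all.

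Of the 2 tested prolyl hydroxylase genes, EGLN1 changed with both the inhibitor and overexpression, and EGLN2 with neither. EGLN1 (ENSG00000135766.8, GENCODE on GRCh38, chr1:231363751-231425044, minus strand, protein-coding) encodes the hydroxylase that sets the normal level of HIF1A protein in most cells. Its level was 37.6 and 39.3 TPM in shControl, 39.8 and 38.2 TPM in sh1, 38.9 and 38.4 TPM in sh2, 25.0 and 23.4 TPM with the inhibitor, 31.9 and 33.8 TPM in Vector and 63.1 and 59.7 TPM with overexpression. The inhibitor libraries lay below and the overexpression libraries above all the others, while the hairpin libraries overlapped with shControl. EGLN1 fell by 0.64 log2 units with the inhibitor (SE 0.050, limma adjusted p = 1.9e-05). With overexpression it rose by 0.88 against Vector (SE 0.050, limma adjusted p = 3.4e-06). Both calls held under every alternative run, and the inhibitor change was -0.42 with the control columns exchanged. No change was called with the hairpins (0.01, 95% interval -0.08 to 0.11, limma adjusted p = 0.82), but with the columns exchanged the difference was 0.23 and was called. EGLN1 was also lower in Vector than in shControl by 0.22 (limma adjusted p = 0.0099), a call lost without shControl replicate 2 (-0.19) or without Vector replicate 1 (-0.18).

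The direct comparisons place the inhibitor apart from the hairpins in EGLN1. Against the mean of the hairpins, EGLN1 was 0.66 log2 units lower with the inhibitor (limma adjusted p = 2.5e-06). The knockdown effect minus the overexpression effect was -0.87 for EGLN1 (limma adjusted p = 2.2e-05), and -0.43 with the control columns exchanged.

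EGLN2 (chr19:40798996-40808433, plus strand) encodes the hydroxylase PHD1 and was the most abundant of the 3. It stood at 88.1 and 87.4 TPM in shControl, 96.5 and 103 TPM in sh1, 96.2 and 91.8 TPM in sh2, 87.8 and 89.7 TPM with the inhibitor, 73.6 and 72.8 TPM in Vector and 73.7 and 72.8 TPM with overexpression. The inhibitor libraries overlapped with shControl, and the overexpression libraries with Vector. The difference was 0.02 with the inhibitor (95% interval -0.07 to 0.10), and 0.0013 with overexpression (95% interval -0.08 to 0.09), with sign changes under the median of ratios and quantile normalization in both. With the hairpins EGLN2 rose by 0.14 (SE 0.033, limma adjusted p = 0.0066), lost with median-of-ratios scaling (0.11, adjusted p = 0.056) and without shControl replicate 2 (0.13, adjusted p = 0.0504). EGLN2 was lower in Vector than in shControl by 0.26 (limma adjusted p = 0.0011). With the control columns exchanged, EGLN2 would therefore be higher with the inhibitor (0.27), lower with overexpression (-0.26) and 0.40 higher with the hairpins, each called.

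EGLN3 (chr14:33924231-34462774, minus strand), which encodes PHD3, was near the bottom of the table and was not tested. Its level was 0.318 and 0.323 TPM in shControl, 0.262 and 0.370 TPM in sh1, 0.295 and 0.0880 TPM in sh2, 0.0944 and 0.117 TPM with the inhibitor, 0.240 and 0.197 TPM in Vector and 0.285 and 0.259 TPM with overexpression. The inhibitor libraries lay below those of shControl without overlap. When all genes were tested without the filter, the inhibitor difference was -0.26 (limma adjusted p = 0.048), on a scale that makes changes of such low genes small.

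Within a library, the ratio of EGLN1 to EGLN2 is not moved by a scaling factor of the library. It was 0.427 and 0.450 in shControl, 0.412 and 0.371 in sh1, 0.404 and 0.418 in sh2, 0.285 and 0.261 with the inhibitor, 0.434 and 0.464 in Vector, and 0.856 and 0.821 with overexpression. Both control groups overlapped in this ratio, although both genes were lower in Vector. The inhibitor libraries were below and the overexpression libraries above all others. EGLN1 made up 29.8% and 31.0% of the summed TPM of the 3 EGLN genes in shControl, 22.2% and 20.7% with the inhibitor, 30.2% and 31.6% in Vector and 46.0% and 44.98% with overexpression. The sum itself was 126 and 127 TPM in shControl, 113 and 113 TPM with the inhibitor, 106 and 107 TPM in Vector and 137 and 133 TPM with overexpression.

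**Figure D2:**
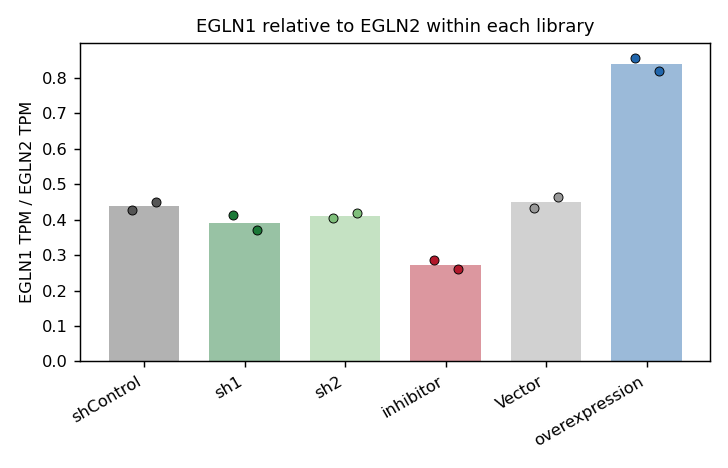
Ratio of EGLN1 TPM to EGLN2 TPM (vertical axis, from 0) in the 6 groups. Points are single libraries and bars are means of 2. Control and hairpin libraries lie between 0.371 and 0.464, the inhibitor libraries at 0.285 and 0.261 and the overexpression libraries at 0.856 and 0.821.

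HIF1AN (chr10:100529072-100559998, plus strand) was higher than its control in all 3 perturbations. Its level was 10.6 and 10.8 TPM in shControl, 14.9 and 14.2 TPM in sh1, 13.8 and 14.0 TPM in sh2, 13.7 and 13.7 TPM with the inhibitor, 11.5 and 11.6 TPM in Vector and 13.7 and 13.5 TPM with overexpression. Every perturbed library lay above the 4 control libraries. HIF1AN rose by 0.38 log2 units with the hairpins (SE 0.039, limma adjusted p = 5.4e-05), with 0.41 for sh1 and 0.35 for sh2. It rose by 0.33 with the inhibitor (SE 0.045, limma adjusted p = 4.7e-04). The rise with overexpression was 0.22 (SE 0.045, limma adjusted p = 0.0047), 0.13 with median-of-ratios scaling, and lost with quantile normalization (0.10, adjusted p = 0.063). Here the knockdown and overexpression effects had the same sign, with a difference of 0.16 that was not called (limma adjusted p = 0.071) but was under both rescalings (0.22 in each) and without the variance trend. That difference was -0.046 with the control columns exchanged.

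VHL (chr3:10141008-10152220, plus strand) was highest with overexpression. It stood at 14.3 and 14.2 TPM in shControl, 16.0 and 16.0 TPM in sh1, 17.8 and 18.1 TPM in sh2, 17.5 and 15.6 TPM with the inhibitor, 15.3 and 17.5 TPM in Vector, and 21.2 and 21.2 TPM with overexpression. The overexpression libraries lay above all others, and the Vector libraries spanned the range of sh1. With overexpression VHL rose by 0.35 (SE 0.067, limma adjusted p = 0.0030), or 0.54 with the control columns exchanged. VHL rose by 0.24 with the hairpins (SE 0.058, limma adjusted p = 0.0083), where sh2 alone was called (0.32, limma adjusted p = 0.0057, and 0.13 without a call after exchange of the columns) and sh1 was not (0.16, limma adjusted p = 0.082). The difference between the hairpins was not called for VHL (0.16, limma adjusted p = 0.25). The hairpin call was lost without shControl replicate 2 (adjusted p = 0.054) and with the columns exchanged (0.05). The inhibitor difference of 0.20 (limma adjusted p = 0.037) was lost under most alternatives, among them both rescalings (0.12 and 0.11), exchange of the columns (0.02), and leaving out shControl replicate 1, shControl replicate 2 or inhibitor replicate 1 (0.13).

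The other 5 proteins of the VHL ligase were all tested: elongin B and C (TCEB2 and TCEB1 in the table), the scaffold CUL2, the RING protein RBX1 and its activator NEDD8. In the hairpin comparison 2 rose and none fell, where 26.2% and 20.2% of all genes did (median 0.06, against 0.03 over all tested genes). With the inhibitor 2 rose and none fell, where 28% and 11.8% did (median 0.10, against 0.08). With overexpression 1 rose and 1 fell, where 26.6% and 10.3% did (median 0.01, against 0.08). NEDD8 rose by 0.17 with the inhibitor from 344 and 349 TPM to 388 and 391 TPM (limma adjusted p = 8.1e-04), a call lost with quantile normalization (0.06). TCEB1 was 0.10 higher with the inhibitor, a call lost under 10 alternatives, without any 1 of the 4 libraries and under both rescalings (0.013 and 0.0065) among them, and 0.11 lower with overexpression, a call lost without any 1 of the 4 libraries. RBX1 was 0.10 higher with the hairpins (227 and 228 TPM in shControl, 239 to 247 TPM in the 4 hairpin libraries). With overexpression RBX1 was 0.08 higher, with the sign turning under the median of ratios (-0.017) and exchange of the columns (-0.16), and the call was also lost without any 1 of the 4 libraries. NEDD8 was 0.07 higher with the hairpins, a call lost with the median of ratios (0.04) and without any of 4 libraries (shControl replicates 1 and 2, sh1 replicate 1 and sh2 replicate 2).

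The HIF subunit genes showed small differences. HIF1A (ENSG00000100644.16, chr14:61695513-61748259, plus strand) stood at 24.8 and 25.9 TPM in shControl, 31.7 and 26.2 TPM in sh1, 29.5 and 30.5 TPM in sh2, 23.7 and 22.6 TPM with the inhibitor, 27.1 and 31.2 TPM in Vector and 25.6 and 22.1 TPM with overexpression. Replicates of sh1, Vector and overexpression were further apart than those of shControl, sh2 and the inhibitor. None of the 3 differences from the controls was called for HIF1A: 0.21 with the hairpins (95% interval 0.01 to 0.40, limma adjusted p = 0.075), -0.13 with the inhibitor (95% interval -0.35 to 0.09, limma adjusted p = 0.34) and -0.28 with overexpression (95% interval -0.50 to -0.06, limma adjusted p = 0.051). The last was called at a filter of 5 TPM (adjusted p = 0.038), under both rescalings (-0.37 and -0.40), and without Vector replicate 1 or overexpression replicate 1 (-0.38 each). The hairpin difference was called without sh1 replicate 2 (0.27), and the inhibitor difference with the columns exchanged (-0.32). HIF1A was 0.33 lower with the inhibitor than with the hairpins (limma adjusted p = 0.0087), a call lost without inhibitor replicate 2 (-0.30, adjusted p = 0.064). The knockdown effect minus the overexpression effect was 0.49 (limma adjusted p = 0.020), 0.10 and not called with the columns exchanged, and also lost without shControl replicate 1, Vector replicate 2 or overexpression replicate 2 (0.39 to 0.46).

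ARNT (chr1:150809705-150876768, minus strand), the beta subunit gene, ranged from 25.4 to 34.6 TPM. It stood at 29.04 and 28.7 TPM in shControl, 30.4 and 28.4 TPM in sh1, 28.4 and 30.8 TPM in sh2, 26.1 and 25.4 TPM with the inhibitor, 31.9 and 30.5 TPM in Vector and 33.1 and 34.6 TPM with overexpression. The inhibitor libraries were the lowest and the overexpression libraries the highest. ARNT fell by 0.16 with the inhibitor (SE 0.053, limma adjusted p = 0.036), a call lost when any 1 of the 4 libraries was left out (adjusted p of 0.076 to 0.14), without the filter (0.054), without the variance trend (0.0503) and with a replicate block in which the inhibitor numbers were crossed, an alternative chosen after seeing the data (0.053). Under the median of ratios and quantile normalization the inhibitor change was -0.24 and -0.25 and was called. With overexpression ARNT was 0.12 higher (limma adjusted p = 0.12), which became 0.22 and called with the columns exchanged. The ratio of HIF1A to ARNT was 0.853 and 0.903 in shControl, 0.922 to 1.04 with the hairpins, 0.907 and 0.890 with the inhibitor, 0.849 and 1.02 in Vector and 0.772 and 0.638 with overexpression, where both libraries lay below all others.

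EPAS1 (chr2:46293667-46386703, plus strand) stayed between 0.0568 and 0.180 TPM in the 12 libraries and was not tested. It stood at 0.180 and 0.169 TPM in Vector and at 0.0951 and 0.0793 TPM with overexpression, without overlap, and the difference without the filter was -0.11 (limma adjusted p = 0.048). The other alpha and beta subunit genes were as low: HIF3A was listed at 0 in 8 of 12 libraries, and ARNT2 ranged from 0.123 to 0.420 TPM. HIF1A and ARNT were thus the only subunit genes of the family that reached 1 TPM.

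CITED2 (chr6:139371807-139374620, minus strand), whose protein displaces HIF from its coactivators, moved in the same directions as EGLN1 with the inhibitor and overexpression. It stood at 56.0 and 55.5 TPM in shControl, 56.2 and 54.2 TPM in sh1, 57.0 and 61.1 TPM in sh2, 46.6 and 46.0 TPM with the inhibitor, 68.4 and 67.2 TPM in Vector and 77.7 and 79.7 TPM with overexpression. The inhibitor libraries were the lowest of the 12 and the overexpression libraries the highest, with Vector next. CITED2 fell by 0.26 with the inhibitor (SE 0.039, limma adjusted p = 7.9e-04), or 0.54 with the columns exchanged. It rose by 0.21 with overexpression (SE 0.039, limma adjusted p = 0.0027), a change of 0.12 and 0.14 under the 2 rescalings and 0.49 with the columns exchanged, called in each. Vector was 0.28 above shControl (limma adjusted p = 9.6e-04), as large as either effect. The hairpin difference was 0.03 (95% interval -0.04 to 0.11), and -0.24, which was called, with the columns exchanged. Knockdown minus overexpression gave -0.18 for CITED2 (limma adjusted p = 0.028), a call lost under both rescalings (-0.11 each), without the variance trend, and without shControl replicate 1, shControl replicate 2, Vector replicate 1, Vector replicate 2 or overexpression replicate 2.

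The coactivator genes moved otherwise. Of EP300, CREBBP, CITED1 and CITED4 the first 2 were tested, and CITED1 and CITED4 were near or under 1 TPM. CREBBP rose by 0.30 with the inhibitor (13.1 and 13.6 TPM to 16.5 and 16.9 TPM, limma adjusted p = 0.0044) and fell by 0.31 with overexpression (13.5 and 14.6 TPM to 11.3 and 10.96 TPM, limma adjusted p = 0.0039). EP300 fell by 0.28 with overexpression (limma adjusted p = 0.0092), a call lost without Vector replicate 2, without overexpression replicate 1 and with the columns exchanged (-0.12). With the hairpins EP300 fell by 0.24 (limma adjusted p = 0.0075), a call lost without shControl replicate 2 (-0.21).

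**Figure D3:**
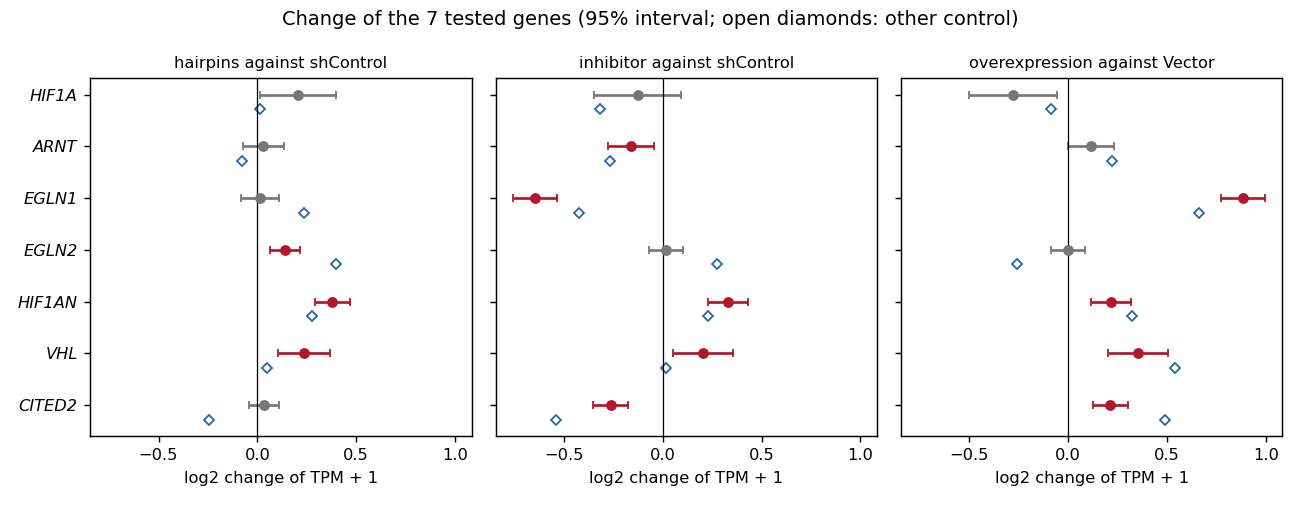
Log2 change of TPM + 1 (horizontal axis) of the 7 tested genes in 3 comparisons. Circles with bars are the change and its 95% interval, red where called, and open diamonds the change with the control columns exchanged. EGLN1 stands at -0.64 with the inhibitor and 0.88 with overexpression, while HIF1AN lies above 0 in all 3.

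Direction counts over all genes depended on the scale. Among called genes, 70.3% were higher with the inhibitor, but 49.9% with median-of-ratios scaling and 51.9% with quantile normalization. For overexpression the shares were 72.1%, 47.8% and 46.3%, for Vector against shControl 73.1%, 51.5% and 48.4%, and for sh2 62.2%, 50.4% and 46.8%. For the difference between the knockdown and overexpression effects they were 38.0%, 53.7% and 52.0%. Quantile normalization moved the median of all genes from 0.08 to -0.022 with overexpression and from 0.09 to -0.020 in Vector against shControl. With the inhibitor and with overexpression, EGLN1 and CITED2 kept their direction and their call under both rescalings.

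The inhibitor and overexpression comparisons share no library, so genes called lower in the first and higher in the second can be counted. Over all tested genes 536, or 4.21%, were. Among the 7 members 2 were, EGLN1 and CITED2. All 35 tested genes of the HIF target list were, as described next, and so was LIMD1 among the proteins that act on the EGLN enzymes.

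The list of known HIF targets held 37 genes besides the members, of which 35 were tested. It was chosen with earlier results of these data known, so its counts are a description and not an independent test. CA12 and ANGPTL4 were too low. With the inhibitor all 35 fell (11.8% of all genes did), with a median of -1.19, and with overexpression all 35 rose (26.6% of all genes did), with a median of 0.89. With the hairpins 23 fell and 2 rose (20.2% and 26.2% of all genes), with a median of -0.27. In Vector 15 were lower than in shControl and 2 higher (7.86% and 21.4% of all genes). EGLN1 changed less than the list's median with the inhibitor and by about the same with overexpression, and CITED2 changed less in each.

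CA9, which encodes a carbonic anhydrase of the cell surface, stood at 3.18 and 4.43 TPM in shControl, 1.77 to 1.88 TPM in the hairpin libraries, 0.112 and 0.335 TPM with the inhibitor, 2.35 and 2.23 TPM in Vector and 29.1 and 28.1 TPM with overexpression. The overexpression libraries were far above all others, a rise of 3.17 log2 units (SE 0.13, limma adjusted p = 4.3e-07). CA9 fell by 0.75 with the hairpins (limma adjusted p = 5.0e-04), which became -0.21 and was not called with the columns exchanged. PFKFB4, a regulator of glycolytic flux, stood at 19.1 and 18.9 TPM in shControl, 14.0 to 15.5 TPM in the hairpin libraries, 1.05 and 1.37 TPM with the inhibitor, 13.1 and 14.2 TPM in Vector and 45.6 and 46.1 TPM with overexpression. Its change was -3.18 with the inhibitor and 1.68 with overexpression, and these groups lay on either side of all others. P4HA2, a collagen prolyl hydroxylase of the same enzyme class as the EGLN proteins, fell by 2.14 with the inhibitor from 9.76 and 8.60 TPM to 1.63 and 1.03 TPM. MIR210HG fell by 2.69 with the inhibitor and rose by 2.03 with overexpression. ALDOC fell by 2.52 with the inhibitor, and the peptide hormone gene ADM fell by 2.22. With the inhibitor MIR210HG averaged 0.957 TPM and ADM 0.367 TPM, from 11.6 and 5.37 TPM in shControl. At such low levels the log2(TPM + 1) scale makes changes smaller than those of TPM.

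In the hairpin libraries 23 target genes fell, 2 rose and 10 were not called. With the control columns exchanged 17 fell and 3 rose. The glucose transporter gene SLC2A3 rose by 1.08, from 6.07 and 5.97 TPM to between 13.02 and 14.7 TPM in the 4 libraries. MXI1 was 0.14 higher (limma adjusted p = 0.049), a call lost under 11 alternatives that include no filter, quantile normalization (0.10), exchange of the columns (0.0089) and leaving out shControl replicate 1 or 2, sh1 replicate 1 or sh2 replicate 1 or 2. ADM fell by 1.50, from a mean of 5.37 to 1.31 TPM, and ANKRD37 by 1.23. The kinase genes PDK1 and HK2 fell by 0.69 and 0.64. HK2 stood at 48.6 and 51.0 TPM in shControl and at 29.4 to 32.5 TPM in the hairpin libraries, without overlap. EGLN1 and CITED2, which changed in the targets' direction with the inhibitor and overexpression, were not called in these libraries.

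**Figure D4:**
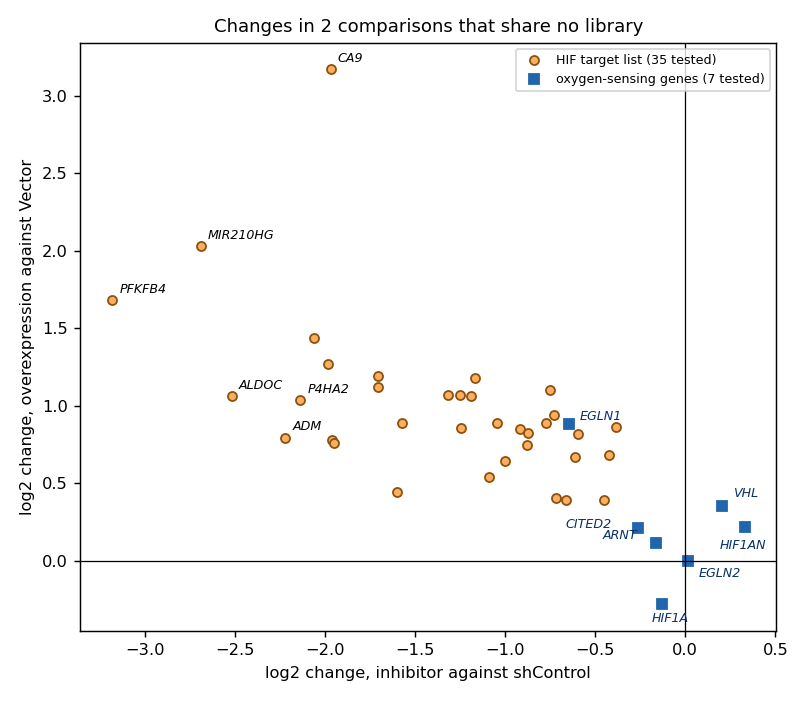
Log2 change of TPM + 1 with the inhibitor against shControl (horizontal axis) and with overexpression against Vector (vertical axis), 2 comparisons without a shared library. Each orange circle is 1 of 35 HIF target genes and each blue square 1 of 7 oxygen-sensing genes. All circles lie at the upper left, with EGLN1 among them at -0.64 and 0.88. CITED2 lies on the same side at -0.26 and 0.21, and HIF1AN (0.33 and 0.22) and VHL (0.20 and 0.35) at the upper right.

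A list of 6 genes held those of proteins that act on the EGLN enzymes and the hydroxylase gene P4HTM. Among them, LIMD1 moved in the same directions as EGLN1. LIMD1, a scaffold that joins EGLN enzymes to VHL, stood at 32.1 and 30.8 TPM in shControl, 26.4 and 25.7 TPM with the inhibitor, 34.3 and 35.1 TPM in Vector and 60.5 and 58.9 TPM with overexpression. It fell by 0.26 with the inhibitor (SE 0.039, limma adjusted p = 7.6e-04) and rose by 0.77 with overexpression (SE 0.039, limma adjusted p = 1.7e-06). The overexpression libraries lay above all others. FKBP8, an anchor for EGLN1 turnover, rose by 0.43 with overexpression (420 and 401 TPM to 544 and 563 TPM) and by 0.33 with the hairpins, a hairpin change that was 0.05 and not called with the columns exchanged. P4HTM, a membrane prolyl hydroxylase, rose by 0.28 with overexpression and by 0.27 with the hairpins, where exchange of the columns turned the sign (-0.12). SIAH2, a ubiquitin ligase for EGLN enzymes, fell by 0.26 with the hairpins from 63.8 and 63.3 TPM to between 49.8 and 56.2 TPM (limma adjusted p = 3.4e-04). Its relative SIAH1 was 0.15 higher there, a call lost under 10 alternatives, exchange of the columns (0.05) and leaving out shControl replicate 1 or 2, sh1 replicate 2 or sh2 replicate 1 among them. PTGES3, a chaperone partner, was 0.18 higher with the inhibitor, a call lost under both rescalings (0.10 and 0.12), in a fit of only the groups compared, and without shControl replicate 1 or inhibitor replicate 1 (0.10). In all, 3 of 6 rose and 1 fell with the hairpins (26.2% and 20.2% of all genes), 1 rose and 1 fell with the inhibitor (28% and 11.8%), and 3 rose and none fell with overexpression (26.6% and 10.3%).

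Genes that act on HIF1A protein independently of oxygen were 7, all tested. With the hairpins 1 rose and 4 fell, where 26.2% and 20.2% of all genes did, with a median of -0.16 against 0.03 over all genes. With the inhibitor 3 rose and 2 fell (28% and 11.8% of all genes), with a median of 0.11 against 0.08. With overexpression 3 rose and 2 fell (26.6% and 10.3% of all genes), with a median of -0.021 against 0.08. HIPK2, a kinase that represses HIF1A, fell by 0.66 with the hairpins from 9.33 and 9.55 TPM to between 5.20 and 5.93 TPM (SE 0.057, limma adjusted p = 2.0e-05). It also fell by 0.33 with the inhibitor to 7.37 and 7.23 TPM. The chaperone HSP90AA1, which holds HIF1A, fell by 0.26 with the hairpins and by 0.23 with overexpression, and HSP90AB1 fell by 0.20 with the hairpins. USP20, a deubiquitinase of HIF1A, rose by 0.33 with overexpression and by 0.26 with the hairpins, the second turning to -0.047 with the columns exchanged. The ligase gene STUB1 was higher by 0.32 with the inhibitor and by 0.27 with overexpression, the second lost under both rescalings and without Vector replicate 2. GNB2L1, the table's symbol for RACK1, fell by 0.22 with the inhibitor. SART1 was higher by 0.17 with the inhibitor and 0.20 with overexpression, lost with the median of ratios in each (0.08 and 0.11) and with quantile normalization in the first (0.037).

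For the 3 members with the widest range, the genes of most similar pattern were taken from 9016 candidates with a mean of at least 5 TPM, by Pearson r of log2(TPM + 1) over the 12 libraries. These libraries form 6 groups, so the points are not independent, and r is a description. For EGLN1 they were PFKP (r = 0.985), a glycolytic phosphofructokinase, NCKIPSD (0.975) and SLC16A3 (0.971), a lactate exporter. PFKP stood at 380 and 370 TPM in shControl, 269 and 274 TPM with the inhibitor, 346 and 349 TPM in Vector and 480 and 489 TPM with overexpression, lowest with the inhibitor and highest with overexpression like EGLN1. SLC16A3 ranged more widely, from 3.78 to 61.2 TPM. For CITED2 they were LOC102723922 (0.993), the condensin subunit NCAPD2 (0.988) and TMC8 (0.987). TMC8 stood at 15.4 and 16.2 TPM with the inhibitor, 34.0 and 35.3 TPM in Vector and 42.2 and 43.0 TPM with overexpression. For VHL they were UGP2 (0.956), the splicing kinase CLK2 (0.953) and ZNF691 (0.952), with lower r than for EGLN1 and CITED2.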

How the data were processed

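RNA of 12 KMS11 libraries was extracted with RNeasy, poly(A)-selected and sequenced on DNBSEQ with strand kept, per the labels' protocols. The authors deposited 1 TPM value per gene and library. Tools in the submitters' processing notes, with no role stated, are DESeq2 1.4.5, RSEM 1.3.1, Bowtie2 2.3.4.3 and HISAT, and the build is GRCh38.p13. Depth is unknown and no count model was fitted.

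Values were log2(TPM + 1). Genes of at least 1 TPM in at least 2 libraries, 12731 of 29607, were tested with limma 3.58.1 (R 4.3.3), with a mean per group over all 12 libraries, a variance trend in eBayes, and Benjamini-Hochberg adjustment over all tested genes in each of 9 comparisons. The fit was tested on simulated data. The members and gene lists were chosen with earlier results of these data known. Named genes are the 9 members, STK17B, up to 4 called genes per pathway list and comparison, and of the HIF targets the 3 largest rises and 5 largest falls. Alternatives were pseudocounts, filters, scalings, eBayes without trend, a fit of only the groups compared, a replicate block, exchanged control columns and leaving out each library. Promoter sequences are from RefSeq (GRCh38.p14), which matched 8 of 9 members, and gene positions are from GENCODE.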

Additional observations from a re-analysis of the deposited data

How the results depend on the processing

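Over the 7 tested members, 847 of 952 values from alternatives kept direction and side of the threshold. Of the others 39 turned sign, called or not, and with the sign kept 39 lost a call and 27 gained one. Among those that turned sign, CITED2 with the hairpins (-0.24) and sh2 (-0.20) and EGLN2 with overexpression (-0.26) became called, each with the control columns exchanged. The precision is limited by 2 libraries per group, and depth is unknown. The cause of the changes was not tested, except that leaving out a library leaves 1 in its group, assumed to vary like the others. Exchange of the control columns only flips the sign of Vector against shControl and is not counted there.

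Same-numbered libraries showed little shared deviation (correlations of deviations from -0.10 to 0.14). With 2 libraries per group, this check cannot decide whether the numbers pair them. With the replicate block 1 member rose with the inhibitor instead of 2 (VHL, adjusted p = 0.051), and no other count of members moved. A block with the inhibitor numbers crossed, chosen after seeing the data, gave 3396 genes higher and 1443 lower with the inhibitor, and 2 members lower instead of 3 (ARNT, adjusted p = 0.053).

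Members rising with the inhibitor also numbered 1 without the filter, in a fit of only the groups compared, with the median of ratios and with quantile normalization. With overexpression 1 member fell at 5 TPM and in both rescalings (HIF1A), without the filter (EPAS1) and with exchanged columns (EGLN2). Exchange of the columns also made 1 member fall with the hairpins, with sh1 and with sh2. For the knockdown effect minus the overexpression effect, 3 members were higher and 1 lower in both rescalings, 2 higher and 1 lower without the trend, and 4 lower with exchange. HIF targets higher with the hairpins numbered 1 with a pseudocount of 0.1, no filter, quantile normalization and no trend.

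Genes higher with the inhibitor were 3569, but 2159 with the median of ratios and 2105 with quantile normalization, and genes lower were 1507, but 3434 with exchange. With overexpression 3381 were higher, but 2198, 2210 and 5721 in those 3 settings, and 1308 were lower, but 2399 with the median of ratios and 2566 with quantile normalization.

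Leaving out 1 library gave 1 to 4 members higher with the hairpins, 1 to 2 with the inhibitor and 1 to 2 in Vector, and 1 to 2 lower in Vector, 0 to 1 lower with overexpression and 3 to 5 lower in the inhibitor than the hairpins. It gave 0 to 2 higher and 1 to 2 lower for the knockdown minus the overexpression effect, and 1 to 2 HIF targets higher with the hairpins.

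Signs turned with the median of ratios for ARNT in sh2 (-0.0087) and sh2 against sh1 (-0.026), EGLN1 with the hairpins (-0.012) and sh2 (-0.036), EGLN2 with the inhibitor (-0.069) and overexpression (-0.091), and RBX1 with overexpression (-0.017). With quantile normalization they turned for ARNT with the hairpins (-0.011), sh2 (-0.026) and sh2 against sh1 (-0.030), EGLN1 with the hairpins (-0.018) and sh2 (-0.037), EGLN2 with the inhibitor (-0.096) and overexpression (-0.062), and HIF1AN in Vector (-0.034). Of these differences only that of RBX1 had been called. With the columns exchanged they turned for ARNT with the hairpins (-0.077), sh1 (-0.082) and sh2 (-0.073), CITED2 with the hairpins (-0.24) and sh2 (-0.20), EGLN2 with overexpression (-0.26), HIF1A (-0.013) and VHL (-0.029) with sh1, HIF1AN in the knockdown minus overexpression effect (-0.046), KDM4A (-0.053), P4HTM (-0.12) and USP20 (-0.047) with the hairpins and RBX1 with overexpression (-0.16).

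Leaving out 1 library also turned signs of small differences that were not called. The ranges were, for ARNT, -0.023 to 0.074 in sh1, -0.021 to 0.090 in sh2 and -0.047 to 0.065 in sh2 against sh1. For EGLN1 they were -0.018 to 0.045 with the hairpins, -0.012 to 0.051 in sh1, -0.024 to 0.039 in sh2 and -0.041 to 0.016 in sh2 against sh1. The others were CITED2 in sh1 (-0.042 to 0.011), EGLN2 with overexpression (-0.0076 to 0.010), HIF1A in sh2 against sh1 (-0.076 to 0.19) and VHL in the inhibitor against the hairpins (-0.11 to 0.043).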

Other observations

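The 5 JmjC enzymes that use oxygen and 2-oxoglutarate like the EGLN proteins form a further list. With the hairpins 1 rose and 1 fell, with the inhibitor none rose and 2 fell, and with overexpression 1 rose and none fell. Of all tested genes 26.2% rose and 20.2% fell, 28% rose and 11.8% fell, and 26.6% rose and 10.3% fell in these comparisons. The histone demethylase gene KDM4C stood at 13.03 and 13.7 TPM in shControl, 10.97 and 11.1 TPM with the inhibitor, 15.1 and 15.4 TPM in Vector and 20.1 and 20.4 TPM with overexpression. It fell by 0.26 with the inhibitor (limma adjusted p = 0.0032) and rose by 0.39 with overexpression (limma adjusted p = 3.8e-04), and the 12 libraries put the inhibitor lowest and overexpression highest. JMJD6 was 0.16 lower with the inhibitor, a call lost without shControl replicate 2 or inhibitor replicate 2. With the hairpins JMJD6 was 0.11 lower, a call lost under 7 alternatives, and KDM4A was 0.22 higher, which turned to -0.053 with the control columns exchanged.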
